A study of Caenorhabditis elegans with 9 samples.

Results

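The genes described here are those by which Caenorhabditis elegans senses and disposes of hydrogen sulfide through the hypoxia-inducible factor HIF-1, followed in the intestine over 3 amounts of dietary heme. They are cysl-1, cysl-2, sqrd-1, sqrd-2, rhy-1, egl-9, hif-1, vhl-1, nhr-57 and ethe-1, chosen by gene name. The set was built around cysl-2 because its level at 2 µM heme stood far above that at 20 µM in these same libraries, so its difference between 2 µM and the other doses is given as a description, and no test of it is used. Of the 10 names, 9 have a row in the deposited table of 21776 genes, and all 9 are among the 13434 genes that passed the filter on low counts. No row carries the name sqrd-2, which is not analysed here.

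The worms were adults of the wild-type strain N2, grown in axenic mCeHR2 liquid medium at 20 °C and exposed to 2, 20 or 400 µM heme for 4 days, starting from synchronized first-stage larvae. C. elegans cannot make heme and takes it up from its food, which makes the medium its source. Each library came from the pooled, dissected intestines of 3 adults by SMART-seq, a full-length cDNA method for small RNA inputs, and each dose has 3 libraries. Nothing in the labels tells whether cultures were kept apart for each library, and the p-values therefore reflect spread among these libraries alone, which may be technical.

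HIF-1 is a transcription factor whose amount is set mainly by its destruction. In normal oxygen the prolyl hydroxylase EGL-9 marks HIF-1, and VHL-1, the substrate-binding subunit of a ubiquitin ligase, has it degraded. Hydrogen sulfide acts on the same switch in worms: CYSL-1, a protein of the cysteine synthase family, binds EGL-9 and inhibits it, and RHY-1, a membrane protein of the endoplasmic reticulum, holds CYSL-1 in check. Once active, HIF-1 raises transcription of cysl-2, nhr-57, sqrd-1, rhy-1 and egl-9, the last of these forming a feedback loop. In mitochondria, the sulfide:quinone oxidoreductase SQRD-1 and the persulfide dioxygenase ETHE-1 oxidize sulfide.

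Library totals ranged from 44385011 to 72960600 counts. The share of ribosomal RNA reached 35.5% in replicate 2 of 20 µM and 42.1% in replicate 3, and was 2.31 to 14.8% elsewhere. Replicates 2 and 3 of 2 µM heme are closer to each other than any other pair of a dose (Pearson r of log2(CPM + 1) across genes 0.995, against 0.776 to 0.957 for other pairs). They still differed by more than counting error, with a mean chi-square of 12.6 per gene where 1 is the sampling noise. Other pairs had 448.2 to 6038. Neither this excess nor the labels can tell whether the 2 are preparations of 1 sample. They were kept as separate libraries, and fits with the 2 summed are given below. The 11 intestine markers found in the table had counts in every library. Together they took 2.74% of counts in replicate 2 of 20 µM, 3.94% in replicate 1 of 2 µM and 10.1 to 20.4% elsewhere. Libraries followed the heme labels, in that the heme transporter hrg-1 had 367 to 507 CPM (counts per 1000000 counts of the scaled library) at 2 µM, 4.22 to 116 at 20 µM and 1.98 to 3.74 at 400 µM. Within 20 µM, replicate 1 stood apart with 116 CPM of hrg-1, against 4.22 and 11.9 in replicates 2 and 3. It likewise had 1631 CPM of hrg-7, against 98.1 and 175.5, where the 2 µM libraries had 5244 to 9280 and those of 400 µM 23.1 to 31.4. Markers of other tissues differ between libraries: hypodermis and body wall muscle lists sum to 2612 and 629 CPM in 2 µM replicate 1, against 33.1 to 596 and 28.1 to 427 CPM in the other 8 libraries. Sperm markers sum to 900.4 to 935 CPM at 2 µM, 57.4 to 304 at 20 µM and 1015 to 8413 at 400 µM. The pharynx list, of which 4 of 11 genes have counts in each 2 µM library, sums to 1.38 to 6.82, 18.9 to 680.0 and 5.98 to 140.5 CPM in the same order of doses. The part of these tissues in the results that follow was not tested.

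Among the 9 genes, cysl-2 stood apart by the size of its difference: it was 50.6-fold higher at 2 µM heme than at 20 µM and 54.8-fold higher than at 400 µM, with no library of 2 µM near a library of the others. For nhr-57, cysl-1, ethe-1, sqrd-1, rhy-1 and egl-9 the means were also highest at 2 µM, but the differences were smaller, and edgeR called none of them in any comparison. The mean of vhl-1 was also highest at 2 µM, likewise without a call. Between 400 and 20 µM heme edgeR called none of the 9 genes. By CPM the gene for HIF-1 itself had its highest mean at 20 µM. By the authors' FPKM, which scale the libraries differently from these CPM, its mean was 59.8 at both 2 and 20 µM. That cysl-2 differs from the other members in its response was not tested, since it was the gene the set was chosen for.

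**Figure D1:**
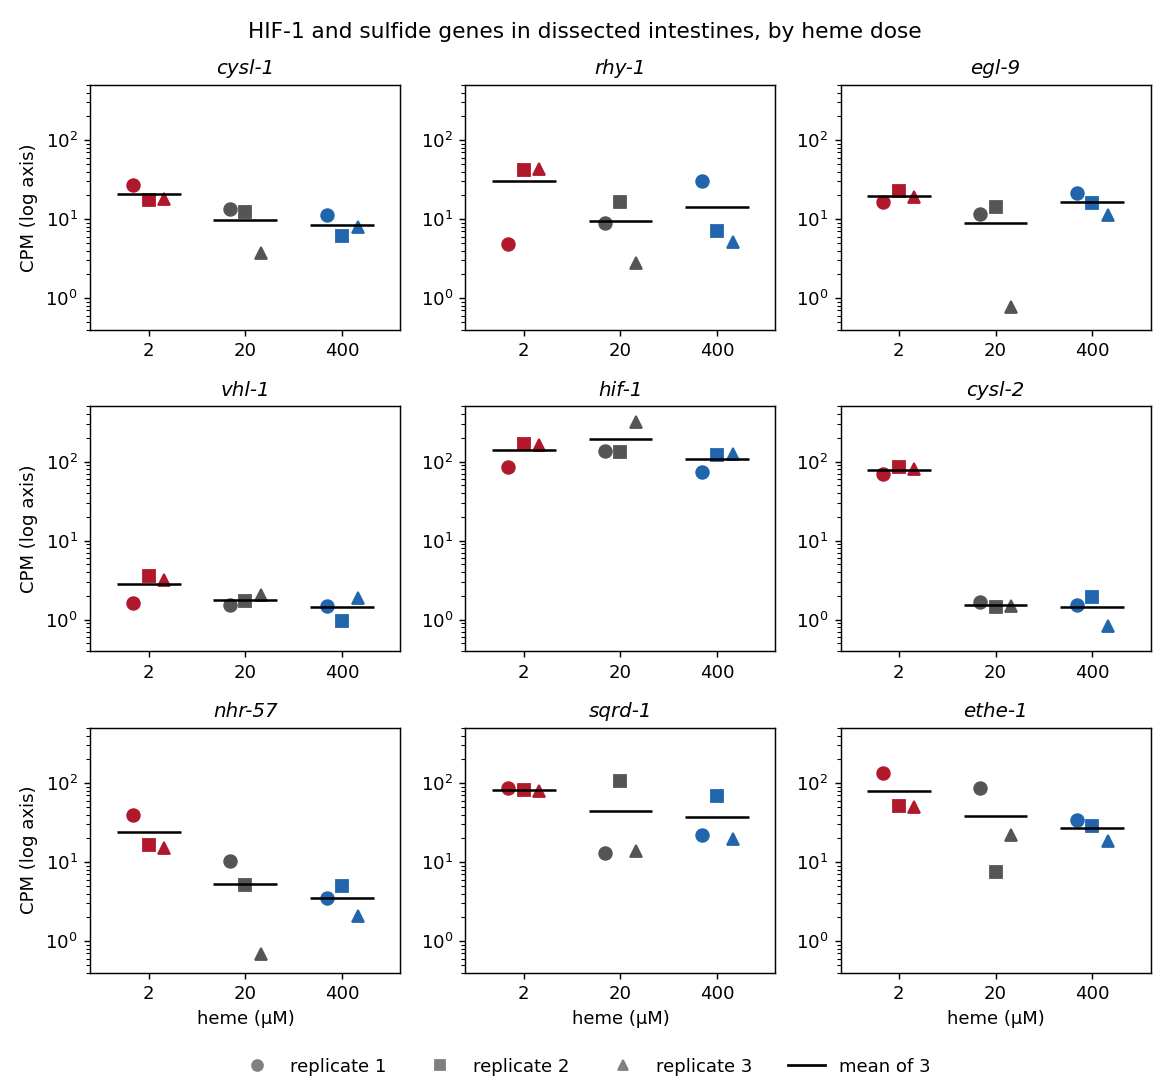
CPM of the 9 genes (log axis) in each library at 2, 20 and 400 µM heme, with the mean of 3 libraries as a line and the replicate number as the symbol. The 3 libraries of cysl-2 at 2 µM heme lie between 68.9 and 86.3 CPM and all others at or below 1.95, whereas rhy-1, sqrd-1 and ethe-1 spread widely within doses.

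The gene cysl-2 encodes an enzyme of the cysteine synthase family that also makes cyanoalanine, which lets worms detoxify cyanide. It lies on chromosome II (14492874 to 14494451, minus strand, WBcel235) and has 1123 exonic bases. Counts of cysl-2 were 5592, 5966 and 4771 with 2 µM heme. With 20 µM there were 66, 91 and 48 counts, and with 400 µM 119, 108 and 64 counts. Scaled levels were 68.9, 86.3 and 80.5 CPM with 2 µM, 1.68, 1.47 and 1.504 CPM with 20 µM, and 1.51, 1.95 and 0.835 CPM with 400 µM. Every 2 µM library was high and every other library low, and the lowest 2 µM library stood 41.0 times above the highest at 20 µM and 35.3 times above the highest at 400 µM. Means were 78.6 ± 8.89, 1.55 ± 0.115 and 1.43 ± 0.561 CPM in order of dose (SD, n = 3 libraries each).

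The fitted log2 fold change of cysl-2 was 5.66 (SE 0.47) for 2 against 20 µM heme and 5.78 (SE 0.47) for 2 against 400 µM, the same 2 µM libraries entering both. For 400 against 20 µM the log2 fold change was −0.12 (SE 0.39), and the libraries overlapped. In the annotation the end of cysl-2 shares 36 exonic bases with vnut-1 on the opposite strand, a gene with 178 to 572 counts at 2 µM and 127 to 372 at the other doses. Whether the counting used strand is not given in the sources used here. The vnut-1 counts are below those of cysl-2 at 2 µM and above them at 20 and 400 µM, where a part of the few cysl-2 counts could be reads of the shared bases, which was not tested. In these pooled intestines fewer cells carrying a transcript and less of it per cell cannot be told apart.

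As a target of HIF-1, nhr-57 encodes a nuclear hormone receptor whose promoter is a common reporter of HIF-1 activity in worms. Its levels were 39.7, 16.7 and 14.99 CPM at 2 µM heme, 10.3, 5.06 and 0.689 CPM at 20 µM, and 3.49, 5.04 and 2.06 CPM at 400 µM. The 2 µM libraries overlapped neither of the other doses, and replicate 3 of 20 µM held only 22 counts. Fitted log2 fold changes were 2.15 (SE 0.86, edgeR adjusted p = 0.341) for 2 against 20 µM heme, −0.60 (SE 0.83, adjusted p = 0.751) for 400 over 20 µM and 2.75 (SE 0.88, adjusted p = 0.359) for 2 against 400 µM. Replicate 1 of 2 µM, the highest here, is also the library with the high hypodermis and muscle sums, and without it the log2 fold change for 2 against 20 µM was 1.60 and that for 2 against 400 µM 2.14. Without 20 µM replicate 1 the first was 3.04 and that for 400 against 20 µM 0.29.

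The first step of sulfide oxidation is carried out by the product of sqrd-1. Its libraries of 2 µM heme were tight, at 86.3, 82.7 and 78.7 CPM. Levels at 20 µM were 13.2, 105.8 and 13.7 CPM, and at 400 µM 22.1, 69.0 and 19.5 CPM. Replicate 2 of 20 µM was thus the highest of all 9 libraries, while its 2 neighbours at that dose were the lowest. That replicate also had the smallest share of intestine markers (2.74% of counts), and whether the 2 are linked was not tested. The log2 fold change was 0.90 (SE 0.86, edgeR adjusted p = 0.688) for 2 against 20 µM, and 2.57 without 20 µM replicate 2. For 2 against 400 µM it was 1.16 (SE 0.86, adjusted p = 0.730), with no overlap of libraries, and 1.99 without 400 µM replicate 2. For 400 against 20 µM it was −0.26 (SE 0.85, adjusted p = 0.905), 1.46 without that 20 µM library and −1.08 without 400 µM replicate 2.

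The next step belongs to ethe-1, an iron-dependent dioxygenase of mitochondria. In order of replicate it had 134, 51.7 and 50.2 CPM at 2 µM heme, 85.7, 7.57 and 21.9 CPM at 20 µM, and 34.0, 28.4 and 18.4 CPM at 400 µM. Replicate 1 of 20 µM lay among the 2 µM libraries, and replicate 2, the library with the highest sqrd-1, had the lowest ethe-1 of all 9. Per 100 sqrd-1 counts there were 649, 7.16 and 160 counts of ethe-1 in the 3 libraries of 20 µM, so the 2 genes of sulfide oxidation did not keep a fixed ratio within this dose. Log2 fold changes of ethe-1 were 1.04 (SE 0.82, edgeR adjusted p = 0.617) for 2 against 20 µM heme, −0.51 (SE 0.81, adjusted p = 0.789) for 400 over 20 µM and 1.55 (SE 0.83, adjusted p = 0.577) for 2 against 400 µM. Without 20 µM replicate 1 the first was 2.42 and the second 0.88. Without 2 µM replicate 1, the library with the high hypodermis and muscle sums, the first was 0.42 and the third 0.89.

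Upstream of HIF-1, cysl-1 had 26.9, 17.3 and 17.9 CPM at 2 µM heme, 13.5, 12.3 and 3.70 CPM at 20 µM, and 11.5, 6.12 and 7.99 CPM at 400 µM. Its 2 µM libraries lay above all others. The difference was small beside that of cysl-2, with a log2 fold change of 1.07 (SE 0.52, edgeR adjusted p = 0.413) for 2 against 20 µM heme, −0.21 (SE 0.52, adjusted p = 0.873) for 400 over 20 µM and 1.28 (SE 0.53, adjusted p = 0.445) for 2 against 400 µM. The cysteine synthase family has other members in the worm, and how reads matching several of them were assigned is not given in the sources used here.

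The inhibitor of cysl-1 action, rhy-1, is itself a HIF-1 target, yet it did not follow cysl-2 from library to library. Its levels were 4.79, 42.4 and 43.5 CPM at 2 µM heme, 8.94, 16.4 and 2.82 CPM at 20 µM, and 30.4, 7.11 and 5.17 CPM at 400 µM. In 2 µM replicate 1, where cysl-2 stood at 68.9 CPM, rhy-1 was lower than in 7 of the other 8 libraries. Replicate 1 of 400 µM, with 1.51 CPM of cysl-2, had more rhy-1 than any 20 µM library. Log2 fold changes of rhy-1 were 1.69 (SE 1.003, edgeR adjusted p = 0.490) for 2 against 20 µM, 0.60 (SE 0.98, adjusted p = 0.795) for 400 over 20 µM and 1.09 (SE 0.99, adjusted p = 0.798) for 2 against 400 µM. Without 400 µM replicate 1 the second was −0.55 and the third 2.26, and without 20 µM replicate 2 the first was 2.36 and the second 1.32. The gene shares 82 exonic bases with W07A12.8 on the opposite strand, which had 110 to 8688 counts, and reads of the shared bases cannot be told apart without strand.

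For egl-9, the oxygen sensor, the levels were 16.4, 23.0 and 19.2 CPM at 2 µM heme, 11.6, 14.2 and 0.783 CPM at 20 µM, and 21.7, 15.9 and 11.3 CPM at 400 µM. The 25 counts of 20 µM replicate 3 set it apart from the others, which held 454 to 1705. Log2 fold changes were 1.14 (SE 0.81, edgeR adjusted p = 0.572) for 2 against 20 µM, 0.88 (SE 0.81, adjusted p = 0.605) for 400 over 20 µM and 0.26 (SE 0.80, adjusted p = 0.951) for 2 against 400 µM. Without that library the first was 0.61 and the second 0.34.

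The lowest in CPM of the upstream genes was vhl-1, with 1.63, 3.58 and 3.17 CPM at 2 µM heme, 1.53, 1.74 and 2.07 CPM at 20 µM, and 1.499, 0.975 and 1.88 CPM at 400 µM. These rest on 54 to 247 counts per library, and the doses overlapped. Log2 fold changes were 0.65 (SE 0.60, edgeR adjusted p = 0.678) for 2 against 20 µM heme, −0.29 (SE 0.60, adjusted p = 0.842) for 400 over 20 µM and 0.94 (SE 0.60, adjusted p = 0.668) for 2 against 400 µM.

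Transcripts of hif-1 did not follow those of cysl-2. They stood at 86.6, 168 and 164 CPM at 2 µM heme, 138, 131 and 316 CPM at 20 µM, and 73.1, 122 and 126 CPM at 400 µM. The 2 and 20 µM libraries overlapped, and in CPM the 400 µM libraries all lay below those of 20 µM by a narrow margin. In FPKM the 400 µM libraries (35.6 to 58.4) overlapped with those of 20 µM (32.4 to 87.8). Log2 fold changes were −0.48 (SE 0.50, edgeR adjusted p = 0.716) for 2 against 20 µM heme, −0.86 (SE 0.50, adjusted p = 0.392) for 400 over 20 µM and 0.38 (SE 0.50, adjusted p = 0.876) for 2 against 400 µM. Without 20 µM replicate 3, the first was 0.07 and the second −0.32. Because HIF-1 is controlled at the protein level, the amount of its RNA does not measure its activity.

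**Figure D2:**
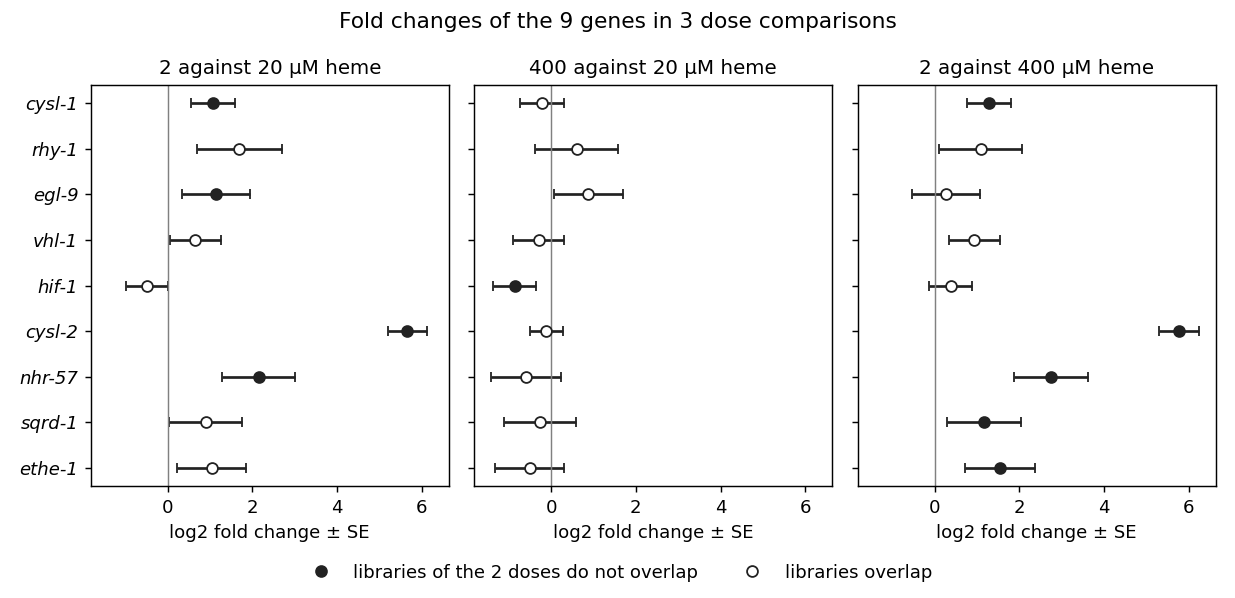
Log2 fold change with its SE for each of the 9 genes in 3 comparisons, from edgeR, filled where the libraries of the 2 doses do not overlap. For cysl-2 the values are 5.66, −0.12 and 5.78, while no other gene exceeds 2.75.

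Leaving aside cysl-2, whose choice fixed its difference, edgeR called 0 of the other 8 genes between 2 and 20 µM heme, where it called 0.0744% of all tested genes in either direction, and 0 of the 8 between 2 and 400 µM, where it called 0.104%. DESeq2 called 0 of the 8 in both (6.95 and 4.35% of all genes), and limma-voom 0 between 2 and 20 µM (1.88% of all genes). For sqrd-1 DESeq2 gave no adjusted p in any comparison, so it could not call that gene. Between 2 and 400 µM limma-voom called 4 of the 8, all higher at 2 µM (nhr-57, cysl-1, rhy-1 and vhl-1, with limma-voom adjusted p of 0.00216, 0.00794, 0.00851 and 0.0452), beside 27.3% of all genes. For these 4 genes the adjusted p reached 0.736 to 1.0 at the highest over the alternatives tried. An unadjusted p under 0.05 in edgeR was reached by 1 of the 8 for 2 against 20 µM and 2 for 2 against 400 µM, beside 13.4 and 10.6% of all genes. Between 400 and 20 µM edgeR, DESeq2 and limma-voom called 0 of the 9 genes, beside 0.551, 12.3 and 0% of all genes. None of the 9 had an unadjusted p under 0.05 in edgeR there, beside 18.5% of all genes. With cysl-2 included, 8 of the 9 log2 fold changes for 2 against 20 µM were positive, with a median of 1.07. Over all genes the median was 0.12, and 54.4% were positive. For 400 against 20 µM 2 were positive, with a median of −0.26, against −0.03 over all genes, of which 49% were positive. For 2 against 400 µM all 9 were positive, with a median of 1.16, against 0.02 over all genes, of which 50.8% were positive. In both comparisons with 2 µM the sign of cysl-2 was fixed by its choice. Log2 fold changes of the other 8 ranged from −0.48 to 2.15 for 2 against 20 µM. For 2 against 400 µM they ranged from 0.26 to 2.75. The medians and counts of positive values describe a set picked with the results known, and each pair of comparisons shares the libraries of a dose.

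Libraries of the 2 doses did not overlap for 3 of the 8 genes other than cysl-2 between 2 and 20 µM heme (cysl-1, egl-9 and nhr-57, each higher at 2 µM), where this holds for 12.7% of all tested genes in that direction and 4.46% are separated with 2 µM lower. For 2 against 400 µM it held for 4 of the 8 (cysl-1, sqrd-1, nhr-57 and ethe-1, each higher at 2 µM), against 14.4% of all genes, with 14.1% separated and lower. For 400 against 20 µM it held for hif-1 alone, which was lower at 400 µM, against 7.44% of all genes, with 16.7% separated and higher. These separations are on CPM, and in FPKM the hif-1 libraries of 400 and 20 µM overlapped.

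Because both the scaling and the ribosomal share differ between libraries, counts were also set against hif-1 within each library, a ratio that no scaling can alter. Per 100 counts of hif-1 there were 79.5, 51.4 and 49.2 counts of cysl-2 in the 2 µM libraries, 1.22, 1.12 and 0.476 counts in those of 20 µM, and 2.07, 1.60 and 0.661 counts in those of 400 µM. These ratios rest on the cysl-2 values for which the set was chosen and are given as a description. Per 100 counts of hif-1 there were 99.7, 49.2 and 48.1 counts of sqrd-1 in the 2 µM libraries, 9.56, 80.7 and 4.33 counts in those of 20 µM, and 30.2, 56.6 and 15.4 counts in those of 400 µM, so the doses overlapped. Set against its paralog cysl-1, cysl-2 had 256, 499 and 448 counts per 100 with 2 µM, 12.4, 11.9 and 40.7 counts with 20 µM, and 13.2, 31.9 and 10.5 counts with 400 µM. The ratios describe unequal change between the genes and do not show that either stayed constant.

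**Figure D3:**
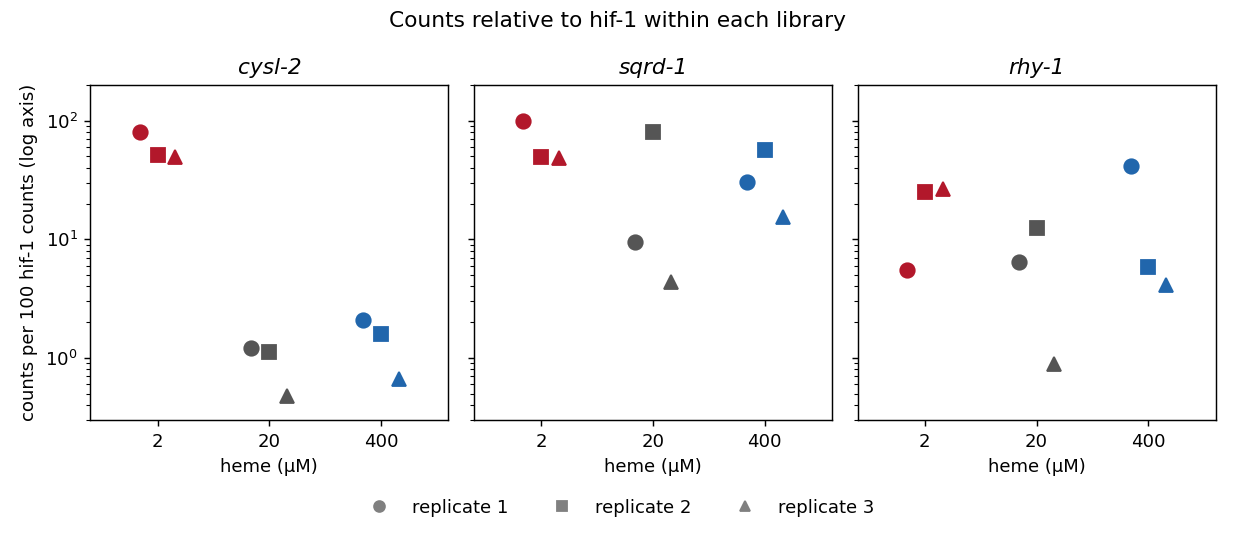
Counts of cysl-2, sqrd-1 and rhy-1 per 100 counts of hif-1 in the same library (log axis), by heme dose, with the replicate number as the symbol. The cysl-2 ratio is 49.2 or more in the 3 libraries of 2 µM heme and 2.07 or less in the other 6, whereas the ratios of sqrd-1 and rhy-1 overlap between doses.

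Levels of different genes were compared on the authors' FPKM, which account for transcript length. In intestines grown with 2 µM heme the order was ethe-1 (114 ± 71.3 FPKM), cysl-2 (80.0 ± 8.82), sqrd-1 (60.3 ± 3.72), hif-1 (59.8 ± 19.3), nhr-57 (21.9 ± 12.95), cysl-1 (20.9 ± 5.67), rhy-1 (20.6 ± 14.96), egl-9 (8.86 ± 1.52) and vhl-1 (5.48 ± 2.00; SD, n = 3). Neighbours in this order were separated in all libraries between cysl-2 and sqrd-1, hif-1 and nhr-57, and egl-9 and vhl-1. The remaining neighbours overlapped. By mean FPKM at 20 µM hif-1 came first (59.8 ± 27.7 FPKM, overlapping with ethe-1) and cysl-2 last (1.15 ± 0.353), below vhl-1 without overlap, and at 400 µM hif-1 was again first (46.9 ± 11.4, overlapping with ethe-1) and cysl-2 last (1.47 ± 0.482), here overlapping with vhl-1. In single libraries of 20 µM hif-1 was below ethe-1 in replicate 1 (32.4 against 67.8 FPKM) and below sqrd-1 in replicate 2 (59.1 against 80.9 FPKM).

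Other genes of the pathway were taken from 3 lists. Of 13 known HIF-1 targets, 8 are not among the 9 genes above, and edgeR called 0 of these 8 in each comparison, beside 0.0744, 0.551 and 0.104% of all genes for 2 against 20, 400 against 20 and 2 against 400 µM. An unadjusted p under 0.05 was reached by 2 of the 8 in each, beside 13.4, 18.5 and 10.6% of all genes. Over the full list of 13, which includes cysl-2, DESeq2 called 2 in each comparison, beside 6.95, 12.3 and 4.35% of all genes in the same order. It gave no adjusted p for sqrd-1 in any comparison, nor for R08E5.3 and ftn-1 for 2 against 400 µM, and could not call them there. With limma-voom 1, 0 and 5 of the 13 were called, beside 1.88, 0 and 27.3% of all genes. For both comparisons with 2 µM heme, the calls of DESeq2 and of limma-voom include cysl-2, whose difference its choice had fixed. The 5 are cysl-2, nhr-57 and rhy-1, which belong to the 9 genes, and R08E5.3 and F22B5.4. Of the 5, F22B5.4 was lower at 2 µM than at 400 µM and the rest were higher. The median log2 fold change of the 8 was 1.25 for 2 against 20 µM (7 positive). It was 0.85 for 400 against 20 µM (6 positive) and 0.69 for 2 against 400 µM (4 positive). Over all genes the medians were 0.12, −0.03 and 0.02, and 54.4, 49 and 50.8% were positive. The 8 include ftn-1, which HIF-1 represses, with log2 fold changes of 1.21, −1.46 and 2.68 in the same order. Their counts of positive values are therefore no count of induced targets.

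Among the other targets is R08E5.3, annotated as rips-1, a methyltransferase-like protein gene on chromosome V (3772021 to 3774609). It had 1226, 358 and 366 CPM at 2 µM heme, 158, 35.9 and 0.909 CPM at 20 µM, and 53.8, 32.2 and 9.24 CPM at 400 µM. The 2 µM libraries lay above all others, but the 20 µM libraries differed among themselves by more than 100-fold. For 2 against 400 µM the log2 fold change was 4.35 (SE 1.51, edgeR adjusted p = 0.384), and 3.48 without 2 µM replicate 1. It was called by limma-voom (adjusted p = 0.00238, with 0.757 the highest over the alternatives).

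The target F22B5.4, which hypoxia induces through HIF-1, had its highest levels at 400 µM heme. Its levels were 3.93, 1.95 and 1.60 CPM at 2 µM heme, 0.459, 0.677 and 7.46 CPM at 20 µM, and 40.1, 31.4 and 13 CPM at 400 µM. All 400 µM libraries stood above all others. The log2 fold change for 2 against 400 µM was −3.50 (SE 1.08, edgeR adjusted p = 0.339), which DESeq2 and limma-voom called (adjusted p = 0.0152 and 0.000284, with 0.736 the highest over the alternatives). Markers of sperm and germline are also highest at 400 µM, with germline sums of 133 to 300.5 CPM at 2 µM, 48.5 to 348 at 20 µM and 1233 to 4183 at 400 µM, and their part in this difference was not tested.

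For smf-3, a metal transporter of the intestine that HIF-1 induces when iron is low, the 2 µM libraries had 10.4, 15.3 and 18.3 CPM, those of 20 µM 7.51, 4.32 and 6.08 CPM and those of 400 µM 11.3, 20.2 and 13.9 CPM. The 20 µM libraries were lowest. Neither of the other doses overlapped with 20 µM, and for 400 against 20 µM the log2 fold change was 1.34 (SE 0.40, edgeR adjusted p = 0.154; DESeq2 adjusted p = 0.0120, with 0.393 the highest over the alternatives). The ferritin gene ftn-1, which HIF-1 represses, had 2916, 255 and 251 CPM at 2 µM, 1248, 160 and 69.6 CPM at 20 µM, and 88.8, 287 and 160 CPM at 400 µM. Its replicates 1 of 2 and 20 µM stood far above the rest, and its log2 fold change for 2 against 400 µM was 2.68 (SE 1.33, edgeR adjusted p = 0.525) and 0.47 without 2 µM replicate 1.

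**Figure D4:**
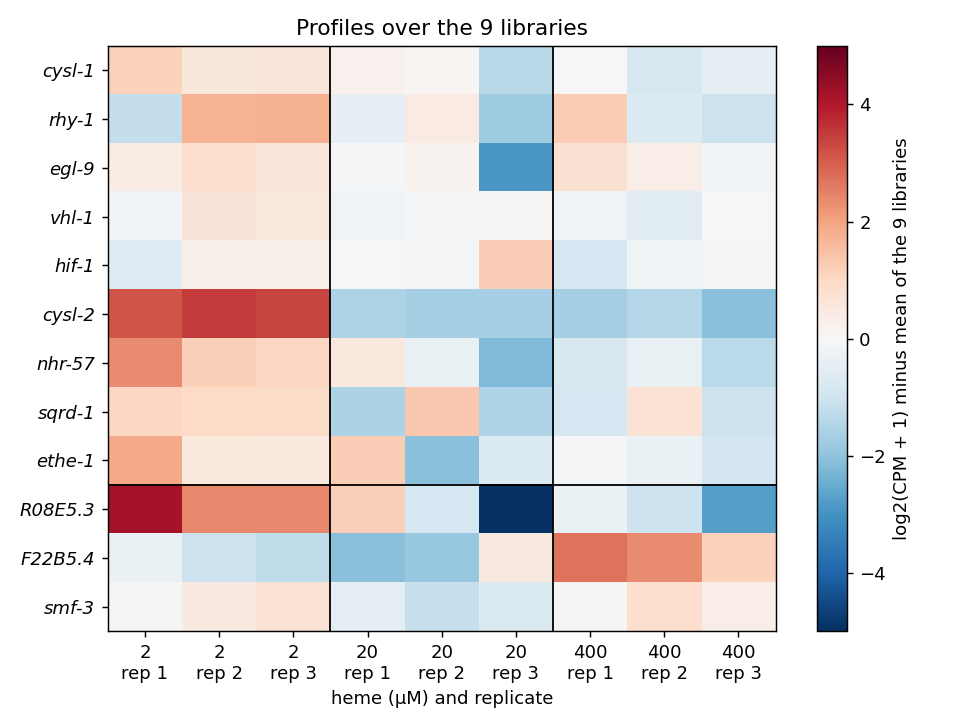
Centred log2(CPM + 1) of the 9 genes (above the line) and 3 other HIF-1 targets (below it) in the 9 libraries, where red is above and blue below the mean of the gene over the libraries. The 3 libraries of 2 µM heme are uniformly high for cysl-2, whereas F22B5.4 is highest at 400 µM heme and R08E5.3 varies within each dose.

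The list on oxygen sensing and HIF-1 regulation holds 11 genes, of which 6 are not among the 9. Of the 6, edgeR called 0 in each comparison, beside 0.0744, 0.551 and 0.104% of all genes for 2 against 20, 400 against 20 and 2 against 400 µM. An unadjusted p under 0.05 was reached by 0 of them, beside 13.4, 18.5 and 10.6% of all genes. Over the full list of 11, DESeq2 called 0 throughout, beside 6.95, 12.3 and 4.35% of all genes. With limma-voom 3 were called for 2 against 400 µM, beside 27.3% of all genes, and 0 in the other comparisons. All 3 (cysl-1, rhy-1 and vhl-1) are among the 9 genes already described, so limma-voom called 0 of the 6. The 6 had median log2 fold changes of 0.01 for 2 against 20 µM heme, −0.06 for 400 over 20 µM and −0.13 for 2 against 400 µM, beside 0.12, −0.03 and 0.02 over all genes. The 4 with the smallest p were elb-1, aha-1, swan-1 and cul-2, with edgeR adjusted p from 0.438 to 0.934 in the comparison where each was smallest. The HIF-1 partner aha-1, for example, had 10.4, 9.05 and 3.83 CPM at 2 µM heme, 5.81, 9.31 and 23.9 CPM at 20 µM, and 8.75, 11.9 and 6.20 CPM at 400 µM, without separation of the doses.

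Of 20 genes of cysteine and sulfide metabolism, 19 are in the table, 18 were tested and 14 of these are not among the 9. In edgeR 0 of the 14 were called in each comparison, beside 0.0744, 0.551 and 0.104% of all genes. Over the 18 tested, which include cysl-2, DESeq2 called 3 for 2 against 20 µM, 3 for 400 over 20 µM and 1 for 2 against 400 µM, beside 6.95, 12.3 and 4.35% of all genes. The 18 include sqrd-1, for which DESeq2 gave no adjusted p. With limma-voom 1, 0 and 6 were called in the same order, beside 1.88, 0 and 27.3%. The 1 called by limma-voom for 2 against 20 µM, and the 1 called by DESeq2 for 2 against 400 µM, is cysl-2. It is also among the 3 of DESeq2 for 2 against 20 µM, and the 6 of limma-voom include cysl-2 and cysl-1. An unadjusted p under 0.05 was reached by 2 of the 14 for 2 against 20 µM, 4 for 400 over 20 µM and 3 for 2 against 400 µM, beside 13.4, 18.5 and 10.6% of all genes. A positive log2 fold change was found for 14 of them for 2 against 20 µM (median 1.11), 10 for 400 against 20 µM (median 1.13) and 9 for 2 against 400 µM (median 0.48). Over all genes 54.4, 49 and 50.8% were positive, with medians of 0.12, −0.03 and 0.02. Each pair of these comparisons shares the libraries of a dose.

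The cysteine synthase paralog cysl-3 lies on chromosome V beside R08E5.3, with which it shares 74 exonic bases on opposite strands. It had 109, 152 and 153 CPM at 2 µM heme, 154, 150.1 and 46.8 CPM at 20 µM, and 39.5, 61.8 and 40.8 CPM at 400 µM. Thus cysl-3 was about as high at 20 µM as at 2 µM in all but replicate 3, and its 2 µM libraries lay above those of 400 µM (log2 fold change 1.54, SE 0.51, edgeR adjusted p = 0.371). This difference was called by limma-voom (adjusted p = 0.00134, with 0.768 the highest over the alternatives). For cysl-4 the levels were 3.95 to 5.09, 2.37 to 6.77 and 3.41 to 5.30 CPM in order of dose, and all doses overlapped.

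Genes of the mercaptopyruvate sulfurtransferase family, which release sulfide from a product of cysteine, include mpst-5 and mpst-6, whose counts are nearly identical in every library, so that their reads may not be separable. Of mpst-6, there were 1.02, 3.47 and 2.70 CPM at 2 µM heme, 0 counts in all libraries of 20 µM, and 13.7, 0.722 and 7.94 CPM at 400 µM. Against a floor of 3 counts over the 20 µM group, mpst-6 was at least 363-fold higher at 400 µM (edgeR adjusted p = 0.0543) and at least 102-fold higher at 2 µM. These limits depend on single libraries: the first was 218-fold without 400 µM replicate 1 and 194-fold without 20 µM replicate 2, and the second 54.7-fold without 20 µM replicate 2. DESeq2 called the first of these differences (adjusted p = 6.74e-09), while limma-voom gave the highest adjusted p of the alternatives (0.405). In the same family mpst-4 had 18.6, 0.433 and 2.04 CPM at 400 µM, against 0.204, 0 and 0.564 CPM at 20 µM. The order of the 400 µM libraries for these genes, highest in replicate 1 and lowest in replicate 2, is that of the sperm marker sums (8413, 1015 and 4940 CPM), and whether their counts come from sperm was not tested. Other genes of the family differed from these. The most abundant, mpst-3, had means of 164.5, 77.1 and 68.5 CPM in order of dose, and mpst-1 had 6.01, 2.74 and 3.94 CPM. For both, the 2 µM libraries lay above all others, without an edgeR call. For mpst-2 and mpst-7 no library held more than 14 and 55 counts.

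The tested genes were also ranked by how closely their profile follows that of cysl-2, as the root-mean-square difference of centred log2(CPM + 1) over the 9 libraries, among 7584 genes with a mean of at least 5 CPM at 1 dose, to which vhl-1 was added. The closest were acr-19 (0.303), cyp-14A4 (0.319), cft-1 (0.348), Y41G9A.10 (0.375) and C24D10.5 (0.510, all in log2 units), with means of 26.3 to 69.0 CPM at 2 µM heme and at most 1.64 CPM at the other doses. Of the other members, nhr-57 ranked 117, sqrd-1 308, cysl-1 314, ethe-1 331, rhy-1 755, vhl-1 933, egl-9 1071 and hif-1 3595. The profiles were centred but not scaled, so the measure counts the size of a difference as well as its course over the libraries. Since cysl-2 was chosen for a large difference, genes with smaller ones rank lower, and the ranks do not tell whether their course differs. The names at the top depend on the pseudocount, since with 0.1 in place of 1 they were T04F8.9, srd-29, F07C4.10, ugt-16 and F46G11.6, none shared with the first 5, while nhr-57 was still the best-placed member at rank 115.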

How the data were processed

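Per the file headers, each library has a column of raw counts and a column of FPKM values, both made by the authors. Bowtie 0.12.2 and WBcel235 are named in the submitters' processing notes, and how reads were assigned to genes is not given in the sources used here. Coordinates are those of the WBcel235 annotation, matched by gene identifier. After filterByExpr and TMM scaling, 1 quasi-likelihood model over all 9 libraries was run in edgeR 4.0.16 under R 4.3.3, with a term for each dose. A gene is called where its p, adjusted by Benjamini-Hochberg over all 13434 tested genes, is under 0.05. CPM are on TMM-scaled totals, where a smaller factor gives a higher CPM. The factors were 0.599 and 0.7195 in 20 µM replicates 1 and 3, and 0.9706 to 1.248 in the other libraries. On this scale 3 counts correspond to 0.0369 to 0.0940 CPM. FPKM entered no test. Each tool was run on simulated counts with known changes, where DESeq2 made more false calls than edgeR or limma-voom. Those counts were drawn from means and spreads that edgeR had estimated. The simulation therefore follows the model of edgeR and cannot decide between the tools for these data. Alternatives were DESeq2 1.42.0, limma-voom (limma 3.58.1) with sample weights, DESeq2 size factors, 2 other filters, only the groups compared, a replicate block, each library left out, 2 µM replicates 2 and 3 summed, ribosomal RNA genes removed, and that sum without 20 µM replicate 1. Members, lists and the naming rule (all members, and the 4 other genes of each list with the smallest p) were chosen with earlier results of these data known. Outside this rule, levels of cysl-4, mpst-1, mpst-2, mpst-3 and mpst-7 are given because they belong to families of genes it names.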

Additional observations from a re-analysis of the deposited data

How the results depend on the processing

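The log2 fold change of cysl-2 lay between 5.504 and 6.06 in all 19 alternatives for both comparisons with 2 µM heme, a difference its choice had fixed. The counts of members called are given for completeness: outside limma-voom they are cysl-2 or no gene, and nothing is read from them. For 2 against 20 µM the members called were 0 with 2 µM replicates 2 and 3 summed, 0 with that sum and without 20 µM replicate 1, and 0 with only the groups compared. Leaving out a library gave 0 to 1, with 0 without 20 µM replicate 2 or without 2 µM replicate 2 or 3. For 2 against 400 µM they were 0 with the sum and 5 in limma-voom. Leaving out a library gave 0 to 1, with 0 without 2 µM replicate 2 or 3 or any 400 µM library. Other alternatives, DESeq2 among them, gave 1 member for each, and every alternative gave 0 for 400 against 20 µM. The cause of the differences between alternatives was not tested. With the replicate block 1, 0 and 1 members were called for 2 against 20, 400 against 20 and 2 against 400 µM. Same-numbered libraries of different doses had correlated deviations of −0.04 to 0.40, against −0.42 to 0.30 for other pairs, and the labels give the numbers no meaning. Pairs numbered 1 had 0.21 to 0.29 and pairs numbered 3 had 0.27 to 0.40, while those numbered 2 had −0.04 to 0.02. Between libraries numbered 1 and 3 the correlations were −0.42 to −0.20. Whether the numbers mark paired samples was not tested. The main fit does not pair them, and calls of the fit with the replicate block are given beside it.

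Over all genes, 10, 74 and 14 genes were called for 2 against 20, 400 against 20 and 2 against 400 µM. In the same order these were 933, 1656 and 584 in DESeq2, 253, 0 and 3670 in limma-voom, 0, 0 and 0 with 2 µM replicates 2 and 3 summed, 2, 0 and 15 with that sum and without 20 µM replicate 1, 0, 0 and 284 with only the groups compared, 2, 0 and 4 with the block, 18, 147 and 29 without a filter and 26, 42 and 60 with at least 10 CPM in 3 libraries. Leaving out a library gave 0 to 210, 0 to 953 and 0 to 54.

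Between 400 and 20 µM the direction turned under at least 1 alternative for cysl-1, cysl-2, ethe-1, nhr-57, rhy-1 and sqrd-1, and under none of those run for egl-9, vhl-1 and hif-1. Log2 fold changes were 0.0917 for cysl-1, 0.87 for ethe-1 and 0.29 for nhr-57 with 2 µM replicates 2 and 3 summed and without 20 µM replicate 1, −0.10 for rhy-1, 0.16 for sqrd-1 and 0.14 for ethe-1 in limma-voom, and 0.0861 for sqrd-1 and 0.0193 for ethe-1 with the block. With a library left out they ranged from −0.59 to 0.0936 for cysl-1, −0.40 to 0.16 for cysl-2, −0.95 to 0.88 for ethe-1, −1.11 to 0.29 for nhr-57, −0.55 to 1.32 for rhy-1 and −1.08 to 1.46 for sqrd-1. Those of hif-1 for 2 against 20 µM ranged from −0.75 to 0.0675, and those of aha-1 from −1.09 to 0.0432. For cul-2, 2 against 400 µM, it was −0.0852 in limma-voom and −0.14 to 0.39 with a library left out. The cause was not tested. The low counts of vhl-1 left it out of the fit with at least 10 CPM in 3 libraries.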
